A study of Mus musculus with 18 samples.

Results

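The genes described here encode ion channels, the water channels called aquaporins, beta subunits of the sodium pump and the FXYD proteins that regulate the pump. They were chosen by gene symbol alone, through the name families Kcn, Scn, Scnn, Cacn, Trp, Clcn, Clca, Clic, Aqp, Atp1a and Atp1b, Cftr, Ano, Gabr, Chrn, Gri, P2rx, Ryr, Itpr, Hcn and Fxyd. Of 10500 probes on the array, for 8841 named genes, 162 carried such a symbol. Leaving out the genes Kcnma1, Atp1b3, Aqp5 and Trpm5, as the rule asks, kept 157 probes for 155 genes, with a pair of probes each for Kcnj9 and Kcnk4. Of these, 79 probes were bright enough to be tested, 73 were dim and 5 lacked too many values (Kcnj11, Gria4, Trpm7, Kcnk2 and Kcnk7). The dim probes never passed an intensity of 0.849 on any array, in units where the median probe of an array lay between 0.929 and 0.952, and nothing is said below of whether those genes were expressed. A probe that was bright in 1 gland could enter the tests through that gland alone, as 14 of the 79 did. Among these, Clcn2 passed the brightness limit, the array's 40th percentile, only in the submandibular testosterone group, and P2rx5 only in the meibomian testosterone group.

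The mice were BALB/c males that had been orchiectomised, that is, had lost their testes, in every group. For 21 days they carried a hormone pellet, either placebo or testosterone. RNA came from the lacrimal gland, which makes the watery layer of tears, the meibomian gland, a sebaceous gland of the eyelid that secretes lipid, and the submandibular gland, a salivary gland. That gives 6 groups with 3 arrays each, every array holding pooled glands (10 glands, from 5 mice, although the labels also state 4 animals per sex and experiment). The pools are lettered A, B and C, and it is not stated whether A in 1 gland and A in another came from the same mice. The values are probe intensity, with n = 3 pools a group, and with so few arrays a group their precision is limited. The p-values measure only the spread between these pools. A change is the difference of log2(intensity + 0.174), testosterone minus placebo, with its standard error (SE) from limma. A probe is said to have risen, fallen or differed where limma's p-value, adjusted over all 7463 tested probes, was under 0.05.

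Exocrine glands secrete fluid in stages. In the secretory endpieces, calcium released through inositol trisphosphate receptors opens chloride and potassium channels, the sodium pump sets the ion gradients that drive chloride out, and water follows through aquaporins. In the ducts of a salivary gland, the epithelial sodium channel takes sodium back from saliva while CFTR and other channels move chloride, so that the final saliva is dilute; the sodium pump again drives this uptake. The meibomian gland works differently, since its cells fill with lipid and burst. The pump itself is built from a catalytic alpha and a beta subunit. No alpha subunit was among the probes, so that the pump is represented by the beta subunits Atp1b1 and Atp1b2 (dim) and by FXYD regulators. A further beta subunit on the array, Atp1b3, is left out by the name rule, and its values are given beside these.

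The start regions of 4 genes on which the results turn are shown here, because Gabrr1 and Kcne3 had the largest testosterone rises among the 79 tested probes and Scnn1g and Scnn1b rose together in the submandibular gland. Each is RefSeq sequence on the mouse build GRCm38.p6, from 250 bases before to 50 bases after the annotated transcription start, written 5′ to 3′ on the gene's strand with each CG in capitals. For Kcne3 the sequence is that of the first of 2 listed starts.
Gabrr1, chr4:33132306-33132605, + strand: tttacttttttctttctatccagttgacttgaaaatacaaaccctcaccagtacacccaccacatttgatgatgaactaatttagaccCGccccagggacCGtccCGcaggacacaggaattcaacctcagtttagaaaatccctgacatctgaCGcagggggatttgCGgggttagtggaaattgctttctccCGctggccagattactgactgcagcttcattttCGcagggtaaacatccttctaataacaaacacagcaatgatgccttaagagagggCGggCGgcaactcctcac
Kcne3, chr7:100176420-100176719, + strand: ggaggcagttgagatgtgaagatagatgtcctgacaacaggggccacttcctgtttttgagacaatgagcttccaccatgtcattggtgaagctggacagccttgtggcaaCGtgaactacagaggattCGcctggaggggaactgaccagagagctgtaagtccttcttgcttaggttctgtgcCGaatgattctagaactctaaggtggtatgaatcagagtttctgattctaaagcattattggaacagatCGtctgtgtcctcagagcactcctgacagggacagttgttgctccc
Scnn1g, chr7:121734229-121734528, + strand: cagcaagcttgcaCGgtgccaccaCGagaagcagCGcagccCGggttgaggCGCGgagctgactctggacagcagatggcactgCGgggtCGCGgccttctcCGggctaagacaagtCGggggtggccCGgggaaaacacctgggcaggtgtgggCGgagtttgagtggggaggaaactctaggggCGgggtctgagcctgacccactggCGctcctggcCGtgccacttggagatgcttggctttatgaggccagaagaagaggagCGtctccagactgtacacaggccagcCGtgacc
Scnn1b, chr7:121864788-121865087, + strand: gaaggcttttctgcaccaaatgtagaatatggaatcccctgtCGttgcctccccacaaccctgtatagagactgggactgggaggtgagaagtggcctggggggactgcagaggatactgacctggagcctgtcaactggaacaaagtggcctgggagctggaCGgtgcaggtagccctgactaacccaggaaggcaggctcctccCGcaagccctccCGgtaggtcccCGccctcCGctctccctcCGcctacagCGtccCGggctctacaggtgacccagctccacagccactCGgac
Scnn1g and Scnn1b lie on chromosome 7 with 0 annotated genes between them. Their start regions held 18 and 10 CG pairs, against 9 for Gabrr1, 4 for Kcne3 and a median of 7 over the 27025 genes in the RefSeq table. The letters AGAACA or TGTTCT, the core of the element to which the androgen receptor binds, were in none of these 4 windows. They occurred in 19% of all genes' windows and in 6.25% of those of the tested channel and pump genes, which is 4 of the 64 with an entry (Aqp9, Kcnj6, Trpc7 and Trpv6). The letters TATAAA or TTTATA were also in none of the 4, and in 14.2% of all windows and 3 of the 64 (4.69%). A match or its absence in this window describes the letters only.

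The tissue labels were checked with marker genes. Car6 and Ltf of the lacrimal acinus reached 547 ± 24.5 (SD) and 79.4 ± 4.29 in the placebo lacrimal gland, Egf and Klk1b5 of the salivary granular duct were highest in the submandibular gland, and the sebocyte markers Elovl3 and Plin2 in the meibomian gland. Car6 was as bright in the submandibular gland (509 ± 31.6). The meibomian pools also carried skeletal muscle RNA: the summed intensity of 9 muscle genes ran from 201 to 249 in the placebo pools there, against 4.1 to 4.72 (lacrimal) and 4.91 to 12.5 (submandibular). Arrays of the meibomian gland spanned another range. Their highest value was 134.6 to 219.1, against 597.5 to 1042 and 636.3 to 742.6 in the lacrimal and submandibular gland, and their 10th percentile was 0.0514 to 0.0741, against 0.211 to 0.316 and 0.211 to 0.243. A difference in level between glands, above all at low intensity, therefore cannot be told apart from this difference in array range. Pools of whole glands also cannot tell fewer cells of a type from less RNA per cell.

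Without testosterone, the glands differed in the levels of sodium, chloride and water channels among the 79 probes. The epithelial sodium channel, the sodium pump subunit Atp1b1, its regulator Fxyd2 and Cftr were highest in the submandibular gland; Aqp8 was highest in the lacrimal gland, and Aqp3 and Clic3 in the meibomian gland. By limma, 42 of the 79 probes (53.2%, against 44% of all tested probes) differed between the lacrimal and submandibular gland, 21 higher in the lacrimal gland (26.2% of all tested probes were) and 21 lower (17.8%). Between the lacrimal and meibomian gland 66 differed (83.5%, against 67.9%), 45 of them higher in the lacrimal gland (38.7% of all) and 21 lower (29.2%). Between the meibomian and submandibular gland 69 differed (87.3%, against 66.6%), 19 higher in the meibomian gland (30.6% of all) and 50 lower (36%). Against both other glands, 17 probes were higher in the submandibular gland (21.5%, against 9.59% of all tested probes), 16 in the lacrimal gland (20.3%, against 18%) and 15 in the meibomian gland (19%, against 22.6%). Some of these passed the brightness limit only in the gland where they were highest. They were Aqp3, Fxyd6, Kcnk4, Ryr1 and Trpv2 (meibomian), Aqp8, Chrna5 and Hcn2 (lacrimal) and Kcnq1 (submandibular). For them a highest level in that gland was favoured by the filter.

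All 3 subunits of the epithelial sodium channel were highest in the submandibular gland. Scnn1a, the alpha subunit, had intensities of 37.9, 33.7 and 33.1 in submandibular placebo pools A, B and C, 15.5, 16.5 and 15.2 in the meibomian and 2.18, 1.59 and 1.73 in the lacrimal pools. The beta subunit Scnn1b was at 8.49, 8.33 and 7.67 in the submandibular, 2.19, 1.85 and 1.76 in the meibomian and 0.353, 0.44 and 0.354 in the lacrimal pools. For both genes the order was submandibular, meibomian, lacrimal, with no overlap of pools and each neighbouring pair different (limma, adjusted p at most 0.000292). The gamma subunit Scnn1g averaged 1.38 ± 0.0348 in the submandibular gland, above the meibomian (0.663 ± 0.0901) and lacrimal (0.462 ± 0.0958) level, and the latter pair did not pass the test (adjusted p = 0.0578).

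Fxyd2, the gamma subunit of the sodium pump known from the kidney tubule, had the largest difference between glands among the pump genes. Its intensity was 273, 286 and 278 in the submandibular placebo pools, 3.66, 3.51 and 3 in the meibomian and 2.07, 2.12 and 4.32 in the lacrimal pools. The submandibular pools stood far above all others, while the lacrimal and meibomian pools overlapped (log2 difference -0.32 ± 0.24, limma adjusted p = 0.251). Atp1b1 was at 51.1, 80.3 and 66.2 in the submandibular gland, 11.5, 12.2 and 11.5 in the meibomian and 0.977, 1.15 and 1.45 in the lacrimal gland, and all 3 glands differed without overlap. Fxyd1, Fxyd3, Fxyd5 and Fxyd6 were highest in the meibomian gland, with Fxyd3 at 51.1 ± 1.3 there, 28.6 ± 4.53 in the submandibular and 13.3 ± 0.495 in the lacrimal gland. Fxyd1, known as phospholemman and abundant in muscle, was at 5.47 ± 0.3 in the meibomian gland, where the muscle genes were also high; the part of muscle in its level was not tested.

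Among chloride channels, Cftr, the chloride and bicarbonate channel of ducts, averaged 5.63 ± 0.695 in the submandibular placebo pools, against 0.489 ± 0.172 in the lacrimal and 0.375 ± 0.0761 in the meibomian pools. Clic3, of the chloride intracellular channel family, was at 16.9, 16.3 and 16.7 in the meibomian gland and at most 0.683 in the placebo pools of the other glands. Clic1 of the same family was also highest in the meibomian gland (35.2 ± 2.41), while Clic4 was highest in the lacrimal gland (12 ± 2.78). Clcn3 did not pass the test in any pair of glands.

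The aquaporins kept by the name rule divided by gland. Aqp5, which the rule leaves out, was bright in both the lacrimal and the submandibular gland. Its placebo means there were 27.5 ± 2.89 and 23 ± 0.858, which did not differ beyond their spread (limma, adjusted p = 0.207). In the meibomian gland it was at 5.51 ± 0.555. Aqp8 had intensities of 41.6, 45.4 and 56.4 in the lacrimal placebo pools, 0.217, 0.377 and 0.162 in the submandibular and 0.0639, 0.0687 and 0.0811 in the meibomian pools. Every lacrimal pool lay far above every pool of the other glands, and only the lacrimal pools passed the brightness limit. The log2 difference from the submandibular gland, whose values lay near the arrays' 10th percentile, depends on the offset and was 6.84, or 5.67 with a 4 times larger and 7.39 with a 4 times smaller one. Aqp3, which also lets glycerol pass, reached 42, 46.3 and 38.4 in the meibomian gland and was at most 0.376 in the placebo pools of the other glands. Aqp1, the water channel of blood vessels and red cells, and Aqp9 were highest in the meibomian gland too, at 1.66 ± 0.187 and 0.94 ± 0.03. The probes of Aqp2, Aqp4, Aqp7 and Aqp11 were dim.

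Of the potassium channels, Kcnn4, the calcium-activated channel of intermediate conductance that helps drive fluid secretion, averaged 22.6 ± 1.1 (lacrimal) and 24.4 ± 2.97 (submandibular), which did not differ beyond their spread (log2 difference -0.11 ± 0.13, limma adjusted p = 0.519, 95% interval -0.37 to 0.16), and was lower in the meibomian gland (3.26 ± 0.323). Kcnk1, a tandem-pore channel, was highest in the lacrimal gland (11.2 ± 2.92), and Kcnk5 and Kcnq1 in the submandibular gland. The G protein-gated channels parted: Kcnj3 was highest in the lacrimal gland (3.78 ± 0.164) and Kcnj6 in the submandibular gland (41.1 ± 1.82). Calcium release channels parted as well. Ryr2, the ryanodine receptor best known from heart muscle, was at 5.26, 5.81 and 7.16 in the lacrimal gland and at most 1.13 in the other placebo pools, whereas Itpr2, an inositol trisphosphate receptor of secretory cells, was at 6.19 ± 0.372 in the meibomian, 5.08 ± 0.913 in the submandibular and 0.696 ± 0.128 in the lacrimal pools. Ryr1, the calcium release channel of skeletal muscle, was highest in the meibomian gland (1.16 ± 0.131), beside the skeletal muscle genes.

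Some channels known from neurons were bright as well. Scn11a, a sodium channel of pain-sensing neurons, was at 70.7 ± 2.07 in the submandibular, 41.1 ± 1.54 in the lacrimal and 17.1 ± 0.549 in the meibomian placebo gland, and its relative Scn10a was highest in the submandibular gland too (9.02 ± 1.93). Of 7 nerve and Schwann cell markers on the array, Nefm, Uchl1 and Prph were dim. The neuronal genes Gap43 and Snap25 were tested, with placebo means of 1.14 and 1.29 in the lacrimal, 1.09 and 1 in the meibomian and 1.14 and 1.48 in the submandibular gland, all above the array medians. The summed intensity of all 7 nerve and Schwann cell markers was highest in the meibomian placebo pools. It was 17.7 to 21.2 there, against 8.51 to 9.3 in the lacrimal and 11.2 to 13.2 in the submandibular gland. The part of nerve in the levels of Scn11a and Scn10a was not tested. Whether the probes of these channels report only the named gene was not tested.

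**Figure D1:**
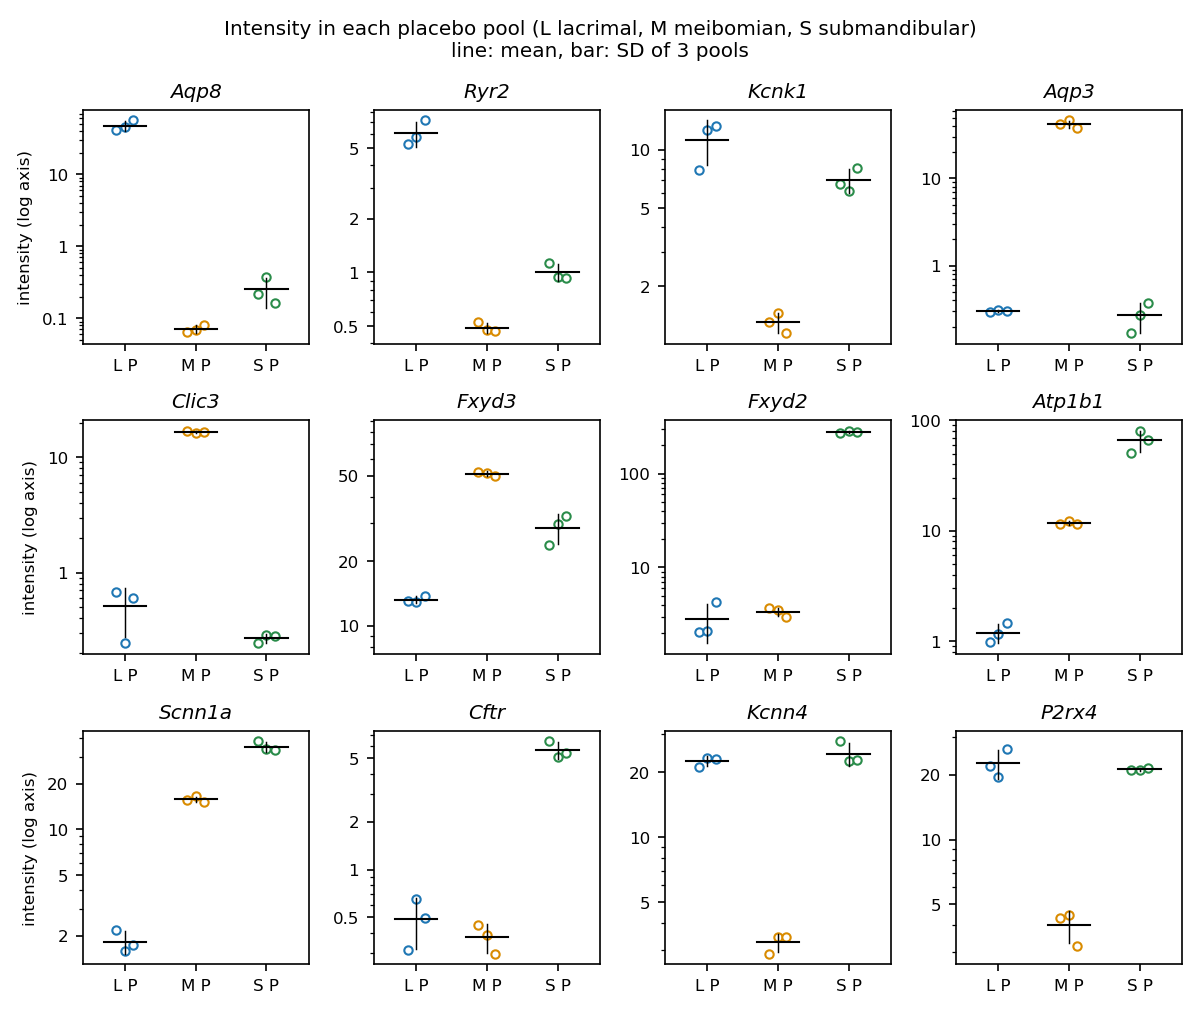
Intensity of 12 channel, aquaporin and pump probes in each placebo pool (points; log axes), with the mean (line) and SD (bar) of 3 pools for lacrimal (L P), meibomian (M P) and submandibular gland (S P). Aqp8 stands out in the lacrimal gland, Aqp3 and Clic3 in the meibomian gland and Fxyd2, Atp1b1, Scnn1a and Cftr in the submandibular gland, while Kcnn4 and P2rx4 overlap between the lacrimal and submandibular glands.

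The first treatment comparison asked how testosterone changed these genes in the lacrimal gland. Of the 79 probes, 25 passed the test (31.6%, against 28.1% of all tested probes), 14 higher (13.3% of all tested probes were) and 11 lower (14.8%), so that the share was close to the background. Gabrr1, Clic3, Kcnip3 and Fxyd7 rose by more than 1 on the log2 scale, which is 2-fold, and none of the falls was that large on this scale. The median change was 0.04, against -0.07 over all tested probes. Pools of the treatments did not overlap for 31 probes (39.2%, against 39.7%), 24 of them among those that passed.

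The largest change among the 79 was that of Gabrr1, the rho subunit of a GABA-gated chloride channel best known from the retina. Placebo pools A, B and C read 1.1, 1.15 and 1.2, and the treated pools read 12.7, 11.7 and 11.1. Every treated pool was far above every placebo pool, and the change was 3.18 ± 0.12 (limma, adjusted p = 4.84e-12), with a ratio of means of 10.3. Among the other 8 tested probes grouped with the transmitter receptors by symbol, which include Grina, not a channel subunit, Grid1 rose (0.52 ± 0.16, adjusted p = 0.0222) and the remaining 7 did not pass.

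Kcnip3, a calcium-binding protein that modulates A-type potassium channels and is also known as the transcriptional repressor DREAM, rose from 0.817, 0.952 and 1.22 to 3.81, 3.58 and 4.51. No treated pool came near a placebo pool, and the change was 1.83 ± 0.15 (limma, adjusted p = 5.51e-08). Clic3 rose from 0.683, 0.244 and 0.598 to 3.76, 2.19 and 2.11, with the treated pools all above the placebo pools (2.09 ± 0.23, adjusted p = 2.92e-06). Since its placebo level is close to the offset, the size of its change moves with it, from 1.48 with a 4 times larger to 2.37 with a 4 times smaller offset. Fxyd7, an FXYD protein known from brain, was 0.541, 0.674 and 0.833 in placebo pools and 2.51, 2.24 and 1.92 with testosterone, again without overlap (1.49 ± 0.15, adjusted p = 9.36e-07).

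Smaller rises were measured for channels linked to calcium and potassium. Ryr2 rose from 6.08 ± 0.978 to 10.2 ± 0.429 (0.74 ± 0.13, limma adjusted p = 0.000295), and Kcnn4 from 21.3, 23.3 and 23.2 to 33.6, 39.7 and 32.9, without overlap (0.64 ± 0.13, adjusted p = 0.00101). Kcnh3 and Kcnc1, voltage-gated potassium channels, rose by 0.78 ± 0.15 and 0.56 ± 0.16, and P2rx4, an ATP-gated cation channel, rose from 22.6 ± 3.45 to 37.4 ± 4.66 (0.72 ± 0.17, adjusted p = 0.00427). Clic1 (0.74 ± 0.18), Aqp9 (0.68 ± 0.13), Fxyd3 (0.47 ± 0.13) and the calcium channel Cacna1f (0.32 ± 0.11) completed the rises. Aqp9 moved only between 0.351 ± 0.0408 and 0.668 ± 0.049, which is below the median of the arrays.

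The 11 falls were between -0.50 and -0.86. Scn11a fell from 39.6, 42.6 and 41.1 to 21.4, 24.7 and 24.7, with no overlap and the smallest error (-0.80 ± 0.09, limma adjusted p = 5.31e-06). Itpr2 fell from 0.8, 0.553 and 0.736 to 0.42, 0.236 and 0.381, also without overlap (-0.75 ± 0.18, adjusted p = 0.00483). The ATP-gated channels P2rx6 (-0.86 ± 0.14) and P2rx5 (-0.74 ± 0.21) fell while P2rx4 rose, although P2rx5 was under the brightness limit in all lacrimal pools, and the other 2 tested members of that family did not pass. Fxyd1 fell by 0.77, the calcium channel Cacna1a by 0.78, Kcnj3 by 0.51, Kcnk5 by 0.54 and Kcnab3 by 0.60. Clic4 and Aqp1 fell by 0.56 and 0.50. Apart from Scn11a, Clic4 and Kcnj3, the genes that fell had mean intensities of at most 1.02 in placebo, near or below the array median. The low end of the lacrimal arrays was itself lower with testosterone, with a 10th percentile of 0.211 to 0.299 against 0.307 to 0.316 in placebo. With no filter on dim probes 17 fell, and with the filter at the array median 7, beside 14 rises in both settings. The part of the shift at the low end in these falls was not tested.

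The epithelial sodium channel, Aqp8, Atp1b1 and Cftr did not pass in the lacrimal gland. The changes of the sodium channel subunits were -0.46 ± 0.22 for Scnn1a, 0.16 ± 0.16 for Scnn1b and -0.23 ± 0.18 for Scnn1g; their 95% intervals reach from -0.93 to 0.02, from -0.18 to 0.49 and from -0.61 to 0.15. Aqp8, the bright lacrimal aquaporin, had a change of -0.24 ± 0.18 (limma, adjusted p = 0.355, 95% interval -0.62 to 0.14). The beta subunit Atp1b1 had -0.51 ± 0.24 (adjusted p = 0.135) and Cftr -0.43 ± 0.21 (adjusted p = 0.148). None of the 6 tested probes with a TRP symbol passed, of which Trpc4ap encodes an associated protein and no channel. Of the genes that the name rule leaves out, Trpm5 rose in this gland and Atp1b3 and Kcnma1 fell, as described at the end.

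Kcnj8, the pore of an ATP-sensitive potassium channel of vascular muscle, was singled out after its values were seen. It was 4.55, 6.55 and 6.61 in lacrimal placebo pools and 1.56, 2.08 and 2.36 with testosterone, all lower than placebo, yet its change of -1.48 ± 0.65 did not pass (limma, adjusted p = 0.104). The error is shared over all arrays, and in the submandibular placebo group pool C read 0.261 where pools A and B read 6.04 and 5.41. In the fit of the 6 lacrimal arrays alone, Kcnj8 had the same change with a limma adjusted p of 0.000308. Beside this, 4 of 5 smooth muscle and myoepithelial marker genes fell in the lacrimal gland, with a summed intensity of 23.2 to 26.9 in placebo and 10.8 to 12.9 in testosterone pools, and all 4 acinar markers fell, from 688 to 725 down to 313 to 431. Among leukocyte markers Cd79a rose (0.51) and Cd74 fell (-0.53), and the summed intensity of that list was 52.4 to 57.2 in placebo and 58.4 to 74.6 in testosterone pools. The part of these cells in the changes of the channel genes was not tested. Cacna1b had a similar stray value, 0.536 in lacrimal placebo pool C against 5.97 and 4.57 in pools A and B, and did not pass (1.12 ± 0.50, adjusted p = 0.112).

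Of the 25 lacrimal calls, 16 held under every alternative setting that tested them and without each array in turn: Gabrr1, Clic3, Kcnip3, Fxyd7, Kcnh3, Ryr2, Clic1, P2rx4, Aqp9, Kcnn4, P2rx6, Scn11a, Cacna1a, Fxyd1, Itpr2 and Kcnj3. In the fit of the lacrimal arrays alone 6 were lost, namely P2rx5 (limma, adjusted p = 0.0544), Kcnk5 (0.0747), Grid1 (0.0813), Aqp1 (0.0978), Kcnab3 (0.105) and Cacna1f (0.134). Leaving out 1 array ended 8 calls. Without placebo pool A, B or C the calls lost were Clic4 in A, Aqp1, Cacna1f, Grid1 and Kcnab3 in B, and Aqp1, Cacna1f, Clic4, Grid1 and P2rx5 in C. Without testosterone pool A they were Cacna1f, Clic4 and P2rx5, without B Aqp1, Cacna1f, Clic4, Grid1, Kcnab3 and Kcnc1, and without C Aqp1, Cacna1f, Fxyd3 and Kcnab3. The highest adjusted p so reached was 0.168 for Aqp1, 0.159 for Cacna1f, 0.127 for Clic4, 0.102 for Grid1, 0.101 for Kcnab3, 0.0749 for P2rx5, 0.058 for Kcnc1 and 0.0521 for Fxyd3.

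**Figure D2:**
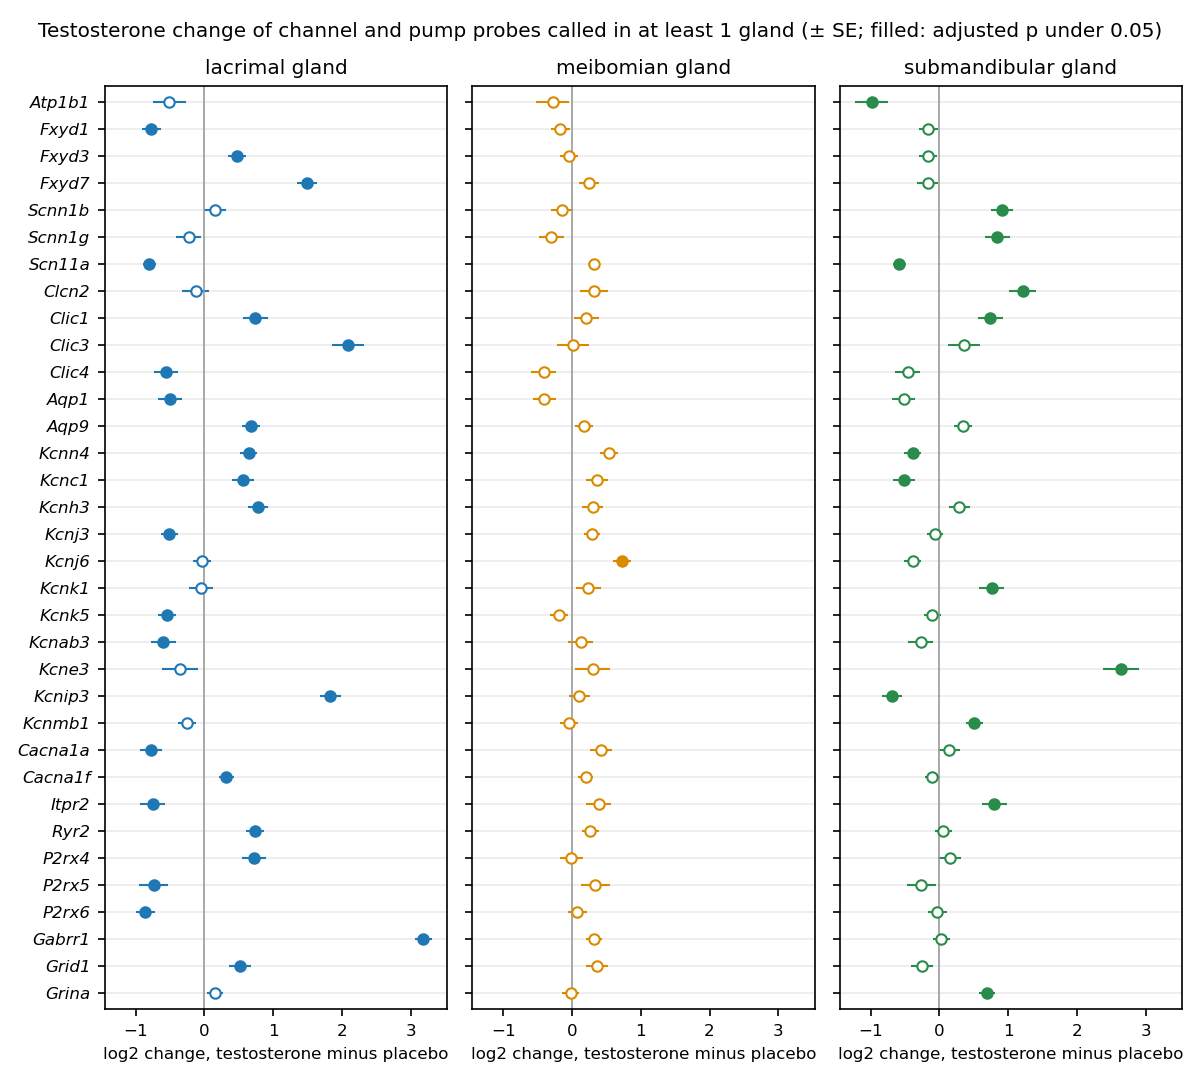
Testosterone change (log2, testosterone minus placebo, ± SE) of the 34 probes called in at least 1 gland, in role order, with a panel for each gland; filled points have an adjusted p under 0.05. Gabrr1 at 3.18 and Kcne3 at 2.64 lie farthest out, in the lacrimal and the submandibular gland, and Kcnj6 is the only filled point in the meibomian panel.

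In the submandibular gland, Scnn1b and Scnn1g of the epithelial sodium channel, the chloride channel genes Clcn2 and Clic1 and the calcium release channel Itpr2 were higher with testosterone, and the pump subunit Atp1b1 and the sodium channel Scn11a were lower. Potassium channel genes went both ways, with Kcne3, Kcnk1 and Kcnmb1 higher and Kcnn4, Kcnc1 and Kcnip3 lower. Of the 79 probes, 14 passed (17.7%, against 13.8% of all tested probes), 9 higher (8.54% of all tested probes were) and 5 lower (5.25%), and 2 of the rises, Kcne3 and Clcn2, were larger than 1 on the log2 scale. The median change was 0.06, against 0.01 over all tested probes. For 28 probes the pools of the treatments did not overlap (35.4%, against 28.8%), and these include all 14 that passed.

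Scnn1b and Scnn1g, whose start regions are printed above, rose while Scnn1a did not pass. Scnn1b was 8.49, 8.33 and 7.67 in placebo pools and 17.6, 13.3 and 15.9 with testosterone. The lowest treated pool lay well above the highest placebo pool, and the change was 0.91 ± 0.16 (limma, adjusted p = 0.000987), a ratio of means of 1.91. Scnn1g went from 1.34, 1.41 and 1.39 to 3.04, 1.99 and 2.92, without overlap and with the lowest treated value in pool B (0.84 ± 0.18, adjusted p = 0.00496, ratio of means 1.92). Scnn1a, the subunit needed for channel function, was 37.9, 33.7 and 33.1 in placebo and 36, 42.1 and 41 with testosterone; these overlap, and the change was 0.18 ± 0.22 (adjusted p = 0.642, 95% interval -0.29 to 0.66).

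Kcne3, a small subunit that holds the potassium channel Kcnq1 open in epithelia, had the largest change in this gland. Its placebo values of 0.221, 0.203 and 0.298 were close to the 10th percentile of those arrays (0.22 to 0.243), and with testosterone they were 2.73, 1.8 and 2.78. All treated pools were above the array median and all placebo pools far below it. The change was 2.64 ± 0.26 (limma, adjusted p = 2.84e-06), and 1.73 with a 4 times larger and 3.11 with a 4 times smaller offset. Kcnq1 itself averaged 0.802 ± 0.0907 in placebo and had a change of -0.35 ± 0.13 (adjusted p = 0.0829). Clcn2, a chloride channel opened by hyperpolarisation, went from 0.39, 0.129 and 0.343 to 0.9, 0.734 and 0.948, without overlap (1.21 ± 0.20, adjusted p = 0.000552). It was tested only because its treated pools here passed the brightness limit, so that a difference was favoured by that choice, and the change was 0.67 and 1.55 with the larger and the smaller offset.

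Further rises were those of Itpr2, from 6.13, 4.68 and 4.43 to 11.3, 8.11 and 7.6 (0.80 ± 0.18, limma adjusted p = 0.0068), Kcnk1, from 6.97 ± 0.983 to 12 ± 2.7 (0.76 ± 0.18, adjusted p = 0.0118), and Clic1, from 11.1 ± 2.16 to 18.5 ± 2.71 (0.74 ± 0.18, adjusted p = 0.0132). Treated and placebo pools did not overlap for any of these. Grina, which matches by its symbol but is not a channel subunit, rose by 0.69 ± 0.12. Kcnmb1, the beta subunit of the large-conductance potassium channel in smooth muscle, rose from 0.5 ± 0.0293 to 0.786 ± 0.0551 (0.51 ± 0.13, adjusted p = 0.0159). It passed the brightness limit on 0 submandibular placebo arrays, 3 submandibular testosterone arrays and 1 array of each lacrimal group. Without its treated pools here it would not have been tested, so that a difference was favoured by that choice. Beside Kcnmb1, 4 of 5 smooth muscle and myoepithelial markers rose, with a summed intensity of 61.2 to 72.9 in placebo and 137 to 157 in testosterone pools. Their part in the rise of Kcnmb1 was not tested.

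Atp1b1 fell from 51.1, 80.3 and 66.2 to 23.1, 33.6 and 45. The highest treated pool stayed below the lowest placebo pool, and the change was -0.98 ± 0.24 (limma, adjusted p = 0.0131), with placebo 1.94 times the treated mean. Fxyd2 read 273, 286 and 278 in placebo and 153, 224 and 149 in treated pools, without overlap, but the treated pools were spread and the change did not pass (-0.70 ± 0.24, adjusted p = 0.0643). None of the 7 FXYD genes passed in this gland. The other falls were those of Scn11a, from 73, 69 and 70.1 to 45, 51 and 46 (-0.58 ± 0.09, adjusted p = 0.000467), Kcnip3, from 1.38, 1.18 and 1.59 to 0.839, 0.824 and 0.703 (-0.69 ± 0.15, adjusted p = 0.00453), Kcnc1 (-0.51 ± 0.16) and Kcnn4, from 27.9, 22.6 and 22.8 to 16, 19.3 and 20.6 (-0.39 ± 0.13, adjusted p = 0.048). For these too, no treated pool reached the lowest placebo pool. Of 4 tested nerve and Schwann cell markers 1 rose in this gland, and the summed intensity of that list was 11.2 to 13.2 in placebo and 15.2 to 16.4 in testosterone pools, while Scn11a was lower; its part was not tested. Cftr did not pass (0.21 ± 0.21, adjusted p = 0.576), and none of the aquaporins did.

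Some pools stood apart in single probes. Kcnj16, an inward rectifier, read 0.269 in placebo pool A and 0.374 in testosterone pool A but 1.87 to 5.89 in the other 4 pools, and Trpc1 read 0.254 in placebo pool A against 0.895 to 1.56 elsewhere in this gland. Neither passed. Placebo pools also differed in fat cell markers, whose summed intensity ran from 40.4 to 124, against 38.6 to 41.9 with testosterone, and the skeletal muscle sum ran from 4.91 to 12.5 in placebo and from 3.7 to 4.38 with testosterone. The part of these cells in the channel results was not tested.

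Only Kcne3, Clcn2, Scnn1b and Scn11a of the 14 held under every alternative that tested them and without each array in turn. In the fit of the 6 submandibular arrays alone, 10 calls were lost, with limma's adjusted p between 0.0512 for Scnn1g and 0.188 for Kcnn4; Atp1b1 was at 0.0929 there, Itpr2 at 0.0723 and Kcnip3 at 0.0609. Leaving out 1 array ended the calls of Clic1, Kcnc1 and Kcnn4 (without placebo pool A), Atp1b1, Kcnk1 and Kcnn4 (placebo B), Kcnmb1 and Kcnn4 (placebo C), Atp1b1, Kcnc1 and Kcnn4 (testosterone A), Kcnc1 and Kcnn4 (testosterone B) and Clic1, Kcnc1, Kcnk1 and Kcnmb1 (testosterone C). The highest adjusted p so reached was 0.195 for Kcnn4, 0.141 for Kcnc1, 0.0646 for Atp1b1, 0.062 for Kcnmb1, 0.0566 for Kcnk1 and 0.0534 for Clic1. Fxyd2 did pass with quantile normalization within glands (-0.85, adjusted p = 0.0154), with a 4 times larger offset (adjusted p = 0.0372) and without testosterone pool B (-0.89, adjusted p = 0.0305).

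**Figure D3:**
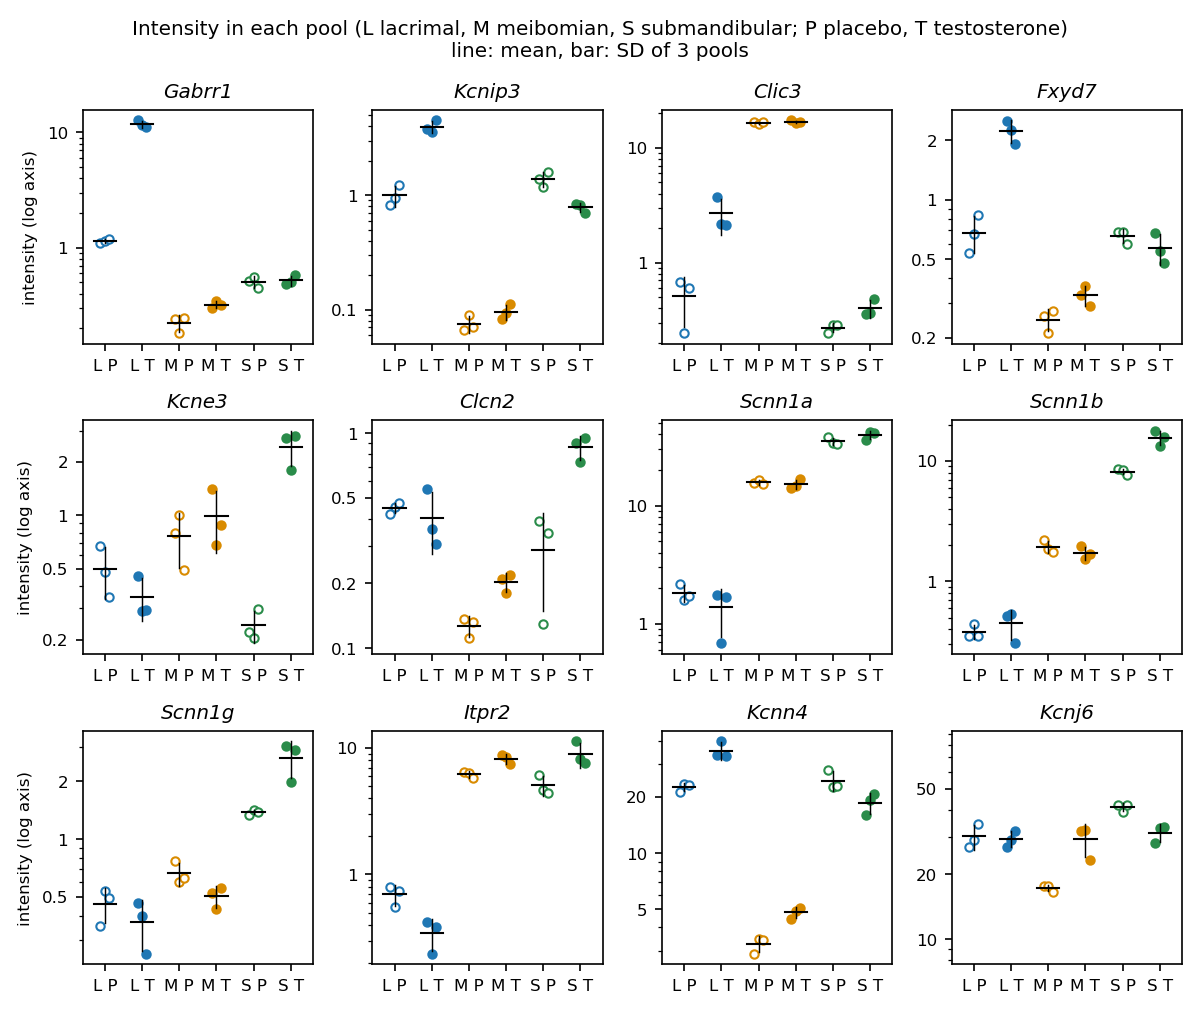
Intensity in each pool (points; log axes) for 12 probes, with mean (line) and SD (bar) of 3 pools, for placebo (P, open) and testosterone (T, filled) in lacrimal (L), meibomian (M) and submandibular gland (S). Gabrr1, Kcnip3, Clic3 and Fxyd7 rise in the lacrimal gland, Kcne3, Clcn2, Scnn1b and Scnn1g in the submandibular gland, and Itpr2 and Kcnn4 move in opposite directions in those glands. The submandibular calls of Scnn1g, Itpr2 and Kcnn4 were lost in the fit of that gland alone.

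In the meibomian gland Kcnj6 was the only one of the 79 probes to pass (1.27%, against 0.59% of all tested probes). Kcnj6, a G protein-gated inward rectifier known from neurons, was 17.6, 17.7 and 16.6 in placebo pools and 31.7, 32.3 and 23.3 with testosterone. All treated pools were higher, pool C the least, and the change was 0.73 ± 0.13 (limma, adjusted p = 0.0207). It passed without testosterone pool C (adjusted p = 0.00479) and not without each of the other 5 arrays in turn, where its adjusted p was 0.0966 to 0.131. Pools of 38 probes did not overlap (48.1%, against 35.9%), and the median change was 0.16, against 0.06 over all tested probes. With a 4 times larger offset these medians were 0.08 and 0.04. The low end of the meibomian arrays was higher with testosterone, with a 10th percentile of 0.0598 to 0.0741 against 0.0514 to 0.0559 in placebo. Its part in the share of pools without overlap and in the median change was not tested.

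Aqp3 and Clic3, which stood out in the placebo meibomian gland, did not pass, and neither did Kcnn4 and Ryr1. Aqp3 was 42, 46.3 and 38.4 in placebo and 25.6, 23.7 and 43.9 with testosterone; pool C of the treated group lay among the placebo pools and the others below (-0.49 ± 0.23, limma adjusted p = 0.348). Clic3 had a change of 0.02 ± 0.23 (95% interval -0.47 to 0.51), and Kcnn4 went from 2.89, 3.45 and 3.44 to 4.45, 4.91 and 5.07 and did not pass (0.54 ± 0.13, adjusted p = 0.0616). Ryr1 was lower in all treated pools (-0.65 ± 0.22, adjusted p = 0.214), with testosterone pool C again nearest to placebo. With each array weighted by its quality, 27 of the 79 passed in place of 1, with 21 higher and 6 lower, and Aqp3 (-0.68, adjusted p = 0.00297) and Ryr1 (-0.82, adjusted p = 0.000874) were among those lower. That setting is the one that moved this gland's count most.

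The testosterone effect itself was compared between glands, which all received the same treatment. By limma's F test over the 3 effects, 26 of the 79 probes differed (32.9%, against 27.7% of all tested probes). In pairs, 21 differed between the lacrimal and submandibular gland (26.6%, against 24%), 15 between the lacrimal and meibomian gland (19%, against 17.6%) and 9 between the meibomian and submandibular gland (11.4%, against 7.4%). Of the 34 probes called in at least 1 gland, 6 were called in both the lacrimal and submandibular gland, and 2 of these moved the same way and 4 the opposite way. Over all tested probes, 3.28% were called in both in the same direction and 2.3% in opposite directions.

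Kcnip3, Kcnn4 and Kcnc1 rose in the lacrimal and fell in the submandibular gland, and Itpr2 did the reverse. The submandibular call of each was lost in the fit of that gland alone. Those of Kcnn4 and Kcnc1 were also lost without single arrays, and the lacrimal call of Kcnc1 did not hold in every setting. Itpr2 passed the brightness limit on 0 lacrimal testosterone arrays. For Kcnip3 the effects were 1.83 and -0.69, a difference of 2.52 ± 0.21 (limma, adjusted p = 1.66e-07). Itpr2 had -0.75 and 0.80, a difference of -1.55 ± 0.25 (adjusted p = 0.000283), on top of a placebo level that was already higher in the submandibular gland. The secretory channel Kcnn4 had 0.64 and -0.39, a difference of 1.03 ± 0.18 (adjusted p = 0.000425), and Kcnc1 a difference of 1.07 ± 0.22 (adjusted p = 0.00235). Clic1 rose by 0.74 in both of these glands, and Scn11a fell in both, where the difference of -0.22 ± 0.13 did not pass (adjusted p = 0.248, 95% interval -0.50 to 0.06).

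Gabrr1, Fxyd7 and Clic3 had larger effects in the lacrimal gland than in either other gland: against the submandibular gland the difference was 3.16 ± 0.16 for Gabrr1, 1.66 ± 0.21 for Fxyd7 and 1.73 ± 0.33 for Clic3 (limma, adjusted p at most 0.000988). Kcne3, Scnn1b and Scnn1g had larger effects in the submandibular gland than in both others. For Kcne3 the lacrimal minus submandibular difference was -3.00 ± 0.37 (adjusted p = 1.61e-05) and the meibomian minus submandibular difference -2.33 ± 0.37 (adjusted p = 0.000815). For Scnn1g these were -1.07 ± 0.25 (adjusted p = 0.00595) and -1.14 ± 0.25 (adjusted p = 0.0113), and for Scnn1b -0.75 ± 0.23 (adjusted p = 0.0226) and -1.06 ± 0.23 (adjusted p = 0.00819). Scn11a fell in the lacrimal and submandibular gland and not in the meibomian gland, where the change was 0.32; the meibomian effect differed from both (limma, adjusted p = 1.1e-05 and 0.000388). Kcnj6 differed between the meibomian gland and both others (adjusted p = 0.0103 and 0.00147).

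**Figure D4:**
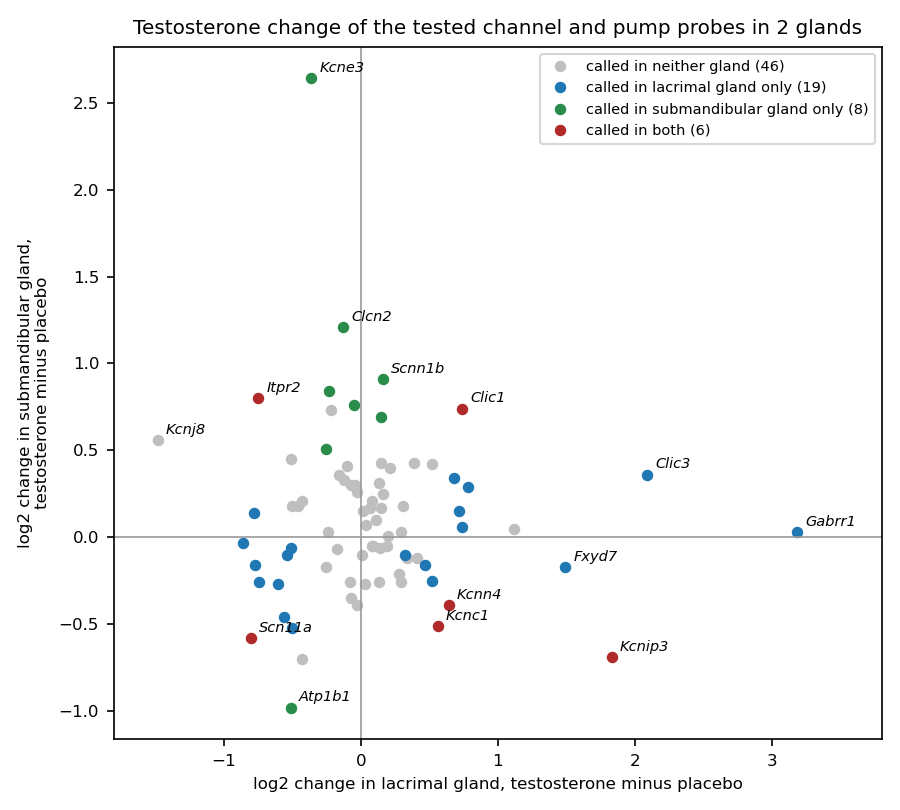
Testosterone change of the 79 tested probes in the lacrimal gland (x axis) against the submandibular gland (y axis), both as log2 testosterone minus placebo, coloured by where the probe was called. Of these probes, 46 were called in neither gland, 19 in the lacrimal gland only, 8 in the submandibular gland only and 6 in both. Of the 6, Kcnip3, Kcnn4, Kcnc1 and Itpr2 lie in the quadrants of opposite sign. Among those called in neither, Kcnj8 at -1.48 and Cacna1b at 1.12 on the x axis lie far from the origin.

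Other genes of fluid and ion transport were taken from a list chosen for their known roles. The list also holds Kcnma1, Atp1b3 and Aqp5, which the name rule leaves out, and the counts that follow include them. Of 20 tested probes, from 22 probes for 21 genes on the array, 2 rose and 6 fell in the lacrimal gland, where 28.1% of all tested probes were called. None passed in the meibomian gland (0.59% of all), and 3 rose and 1 fell in the submandibular gland (13.8% of all). In the submandibular gland, Sgk1 rose from 6.49, 6.19 and 6.91 to 26.5, 15.9 and 28 (1.78 ± 0.19, limma adjusted p = 7.45e-06). Sgk1 is the kinase that keeps epithelial sodium channels at the cell surface. Slc4a4, the sodium bicarbonate cotransporter, rose from 1.06 ± 0.266 to 17.1 ± 2.66, and Nedd4l, the ligase that removes the sodium channel, went from 5.34 ± 0.361 to 3.66 ± 0.111 without passing (-0.52 ± 0.18, adjusted p = 0.0689). The other calls in the submandibular gland were a rise of Ank3 (0.93 ± 0.26, limma adjusted p = 0.0242) and a fall of Vdac1 (-0.54 ± 0.13, adjusted p = 0.0093). In the lacrimal gland Sgk1 fell (-0.87 ± 0.19, limma adjusted p = 0.00249), as did Nedd4 (-0.47 ± 0.12, adjusted p = 0.00829) and Vdac2 (-0.33 ± 0.11, adjusted p = 0.0427). The rises there were those of Stk39 (0.66 ± 0.12, limma adjusted p = 0.000489) and Car2 (0.54 ± 0.18, adjusted p = 0.0293). The other falls counted in the lacrimal gland were those of Atp1b3 and of both Kcnma1 probes. The genes that the name rule leaves out went different ways there. Trpm5, a calcium-activated cation channel known from taste cells, rose from 1.22, 1.31 and 1.42 to 75.3, 67.8 and 69.4 (5.57 ± 0.17, limma adjusted p = 4.91e-13), a change larger than that of Gabrr1, and did not pass in the other glands. Kcnma1, the pore of the large-conductance potassium channel, fell at both of its probes (-1.73 ± 0.13 and -1.12 ± 0.15), and the pump subunit Atp1b3 fell from 15.7 ± 1.53 to 6.12 ± 1.3 (-1.35 ± 0.15, adjusted p = 4.48e-06). Aqp5, the main aquaporin of salivary and lacrimal acini, did not pass in any gland, with -0.24 ± 0.15 in both the lacrimal and the submandibular gland and -0.44 ± 0.15 in the meibomian gland. Slc12a2, the chloride uptake transporter, read 0.316 in submandibular placebo pool C against 71.3 and 66.5 in pools A and B, and did not pass (1.95 ± 1.22, adjusted p = 0.322). In the lacrimal gland it went from 6.35, 2.68 and 4.18 to 2.36, 1.38 and 1.96, without overlap. It did not pass there either (-1.09 ± 1.22, limma adjusted p = 0.556), with an error that is shared over all arrays and includes the stray submandibular pool.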

How the data were processed

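The deposited table held 1-colour probe intensity for 18 arrays, with array medians of 0.929 to 0.952 as deposited. For the array, scanner, background correction and scaling, nothing is given in the sources used here, and the scale is linear. The code -1 (37 to 118 probes an array) was read as no value and not as 0, as first planned, and other values below 0 (lowest -0.128) were set to 0. Log2 values were computed here as log2(intensity + 0.174), the offset being the 10th percentile of positive values. Probes needed 2 values in each group and an intensity above the array's 40th percentile on 3 arrays, which kept 7463 of 10500 and left out 146 with missing values and 2891 dim ones. Probes were named from the platform annotation: 8983 carry 1 symbol, 1 several and 1516 none, and the RefSeq table changed 0 of the symbols. Group means were fitted over all 18 arrays with limma 3.58.1 (R 4.3.3; empirical Bayes with trend, 12 residual degrees of freedom), with Benjamini-Hochberg adjustment over all 7463 and a threshold of 0.05, and the procedure was tested on simulated data. A moderated F test compared the testosterone effects of the glands.

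The genes, lists and comparisons were chosen with earlier results of these data known. Named genes are those called in a testosterone contrast (up to 8 per role), those with the 12 largest F statistics, the 10 largest placebo differences of each pair of glands, those highest in 1 placebo gland, and a list of pump, sodium, chloride, water and calcium channel genes; any other choice is stated where made. Alternatives were each gland alone, offsets 4 times smaller or larger, other brightness filters, -1 counted as 0, the brightest meibomian probes left out, quantile or median scaling, array weights, the pool letter as a block, and leaving out each array. Within each gland, the placebo and testosterone pools of the same letter correlated from -0.1 to 0.13 in their residuals. The correlation was above 0.1 in 1 of 9 pairs, so that they were not treated as pairs. Same-letter pools of different glands were not correlated. The comparisons between glands take these pools as independent, and whether they are was not tested.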

Additional observations from a re-analysis of the deposited data

Results flagged for a closer look

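The testosterone effect differed among the 3 glands by limma's F test for 26 of the 79 tested probes (32.9%, against 27.7% of all tested probes). The genes with the most different effects were Gabrr1 (adjusted p = 9.7e-10), Kcnip3 (4.08e-07), Scn11a (1.59e-05), Kcne3 (3.02e-05), Fxyd7 (4.82e-05), Clic3 (0.000314), Kcnn4 (0.000545), Itpr2 (0.000623) and Kcnj6 (0.000942). They were followed by Cacna1a (0.00216), Kcnc1 (0.00397), Scnn1g (0.00438), P2rx6 (0.00442), Clcn2 (0.00548), Scnn1b (0.00567), Kcnj3 (0.00623), Kcnmb1 (0.0137) and Grina (0.0145). Adjusted p was 0.0238 for Ryr2, 0.0252 for Kcns1, 0.0354 for P2rx5, 0.0382 for both Grid1 and Kcnh7, 0.0388 for Fxyd3, 0.0398 for Fxyd1 and 0.0488 for Kcne1. Kcns1, Kcnh7 and Kcne1 did not pass in any single gland. Their changes in the lacrimal, meibomian and submandibular gland were -0.17, 0.55 and -0.07 for Kcns1, 0.34, -0.32 and -0.12 for Kcnh7, and -0.51, 0.12 and 0.45 for Kcne1.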

How the results depend on the processing

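The lacrimal count of 25 ran from 19 to 31 over the alternatives and from 20 to 26 without 1 array. The meibomian count of 1 was 3 with that gland's arrays fitted alone (all higher) and 27 with array weights (21 higher, 6 lower), and 0 to 1 without 1 array. The submandibular count of 14 was 4 with that gland fitted alone (3 higher, 1 lower) and 10 to 14 without 1 array. With no filter on dim probes, 129 probes differed between the placebo lacrimal and meibomian gland (108 higher in the lacrimal gland) and 118 between the placebo meibomian and submandibular gland (99 higher in the submandibular gland). Quantile normalization over all arrays turned 4 placebo differences: meibomian minus submandibular for Aqp8 (0.03), Chrna5 (0.02) and Clcn2 (0.10), and lacrimal minus meibomian for Kcnq1 (-0.03). With the pool letter as a replicate block, the lacrimal count was 25, the meibomian 1 and the submandibular 13, the call of Kcnc1 being lost. The cause of these shifts was not tested. Low intensity limits the results: 73 of the 157 probes were dim, and changes of genes near the offset depend on it.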
